A study of Mus musculus with 9 samples.

Results

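The 37 interferon-stimulated genes described here were a list of gene symbols looked up in 3 tables of gene expression. The tissue was the media of the mouse femoral artery, which is its smooth muscle layer. The tables held 17093 genes in all. Every one of the 37 was found in each of the 3 tables, which held 16315, 16933 and 16187 genes, and all 37 passed the filter of a mean normalised count of at least 10. The list was drawn up by symbol, not by values, but with earlier results of these data known. All libraries came from C57BL/6 mice and were made from total RNA. The first group, called sham below, was the sham control. The second, called injured, was taken at day 14 after wire injury, in which a wire passed along the lumen damages the artery wall. The third, called inhibitor-treated, was taken at day 14 after the same injury in mice given VS-4718, an inhibitor of focal adhesion kinase (FAK), by oral gavage at 50 mg/kg, 2 times a day for 2 weeks. The labels describe a citrate vehicle as the alternative to the inhibitor. They do not say whether the sham mice received it, on which day the sham arteries were taken, or how many mice stand behind a library. Each group had 3 libraries, numbered 1 to 3. The labels do not say that these came from separate mice, so the p-values measure the spread between these libraries, which may be technical. Fat and adventitia had been dissected away, and the lumen had been flushed with TRIzol, a lysis reagent, to remove endothelial and immune cells. Marker genes of these cells were still read, such as the endothelial Pecam1 at 8634 to 13110 in sham libraries, and are given below. In such bulk tissue, fewer cells of a type and less RNA per cell cannot be told apart.

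Interferons are secreted proteins that warn cells of viruses, bacteria and misplaced nucleic acid. Type I interferons bind the receptor pair IFNAR1 and IFNAR2, whose kinases JAK1 and TYK2 phosphorylate STAT2. STAT2 acts with IRF9 in a complex that binds the interferon-stimulated response element, or ISRE. Type II interferon, interferon gamma, acts through another element, GAS. The genes switched on encode RNA sensors, enzymes that block viral replication, and GTPases that attack pathogen-containing vacuoles, along with further transcription factors and brakes on the pathway. Smooth muscle cells and macrophages of the artery wall can both respond.

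To show the elements by which these genes are known to be switched on, the 250 bases before each start in the RefSeq promoter table (build GRCm38.p6) were searched on both strands. The ISRE core was searched as GAAA, any 2 bases (NN) and GAAA again, and GAS as TTC, any 3 bases (NNN) and GAA. Of the 37 members 28 were in that table. Dhx58, Zbp1, Oas2, Usp18, Parp9, Parp14, Mx1, Rtp4 and Iigp1 were not. The ISRE core was present in 15 of the 28 members, against 2.98% of all 32851 windows in the table and 3.46% of its 27025 genes. GAS was present in 6 of the 28, against 7.02% of windows and 8.13% of genes. Bst2, Gbp7, Igtp and Oas1a held both. The 60 bases around the match are shown for 8 members on which the results below turn or that differ in element. Capitals mark every match, to GAS for Irf1 and to the ISRE core for the others. A core on the other strand reads TTTC, NN, TTTC, and overlapping matches run together.
Isg15: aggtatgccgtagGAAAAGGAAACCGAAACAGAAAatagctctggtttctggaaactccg
Ifit1: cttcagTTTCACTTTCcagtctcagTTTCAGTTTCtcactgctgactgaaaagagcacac
Ifit3: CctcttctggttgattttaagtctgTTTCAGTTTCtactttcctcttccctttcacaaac
Oas1a: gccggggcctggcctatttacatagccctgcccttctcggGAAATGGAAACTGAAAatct
Oas3: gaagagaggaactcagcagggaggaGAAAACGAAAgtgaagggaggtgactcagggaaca
Rsad2: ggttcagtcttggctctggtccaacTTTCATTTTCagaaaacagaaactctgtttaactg
Gbp2: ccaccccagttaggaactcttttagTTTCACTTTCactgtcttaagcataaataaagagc
Irf1: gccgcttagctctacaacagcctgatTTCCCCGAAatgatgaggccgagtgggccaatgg
The Isg15 window (chr4:156200850-156200909, minus strand) held 3 overlapping copies of the ISRE core, the last 66 bases before the start. Ifit1 (chr19:34640779-34640838, plus strand) held 2 separate copies within the bases shown. Ifit3 (chr19:34583382-34583441, plus strand) held 2, of which the other ended at the first base shown, and its neighbour Ifit3b carried the same 60 letters. Oas1a (chr5:120907526-120907585, minus strand) held 2 overlapping copies, the nearer 14 bases before the start. Oas3 (chr5:120777700-120777759, minus strand) and Rsad2 (chr12:26456538-26456597, minus strand) held 1 copy each, at 75 and 120 bases before the start. Gbp2 (chr3:142620579-142620638, plus strand) held 1 at 59 bases, and Irf1 (chr11:53769898-53769957, plus strand) held 1 GAS match and no ISRE core in the window. A match is a string of letters, and no binding was measured here.

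Each library held between 14676891 and 21248740 reads assigned to genes. Values are normalised counts, that is, reads divided by a size factor for each library. Levels by library are given on a single scale for all 9 libraries, in the order of replicates 1, 2 and 3. Fold changes are from limma on log2(normalised count + 1), which understates the change of low genes, fitted on each comparison's own 6 libraries and table, and are given ± the standard error. A gene passed at a Benjamini-Hochberg adjusted p under 0.05 over all genes tested. Smooth muscle markers marked the tissue: Myh11, smooth muscle myosin, lay at 176500 to 226800 in sham, 43660 to 62370 in injured and 197300 to 207800 in inhibitor-treated libraries. Some libraries were high in markers of other tissues. Skeletal muscle markers summed to 55060, 470100 and 28430 in injured, 6634, 4534 and 26790 in sham and 2103, 33290 and 7414 in inhibitor-treated replicates 1, 2 and 3. Liver markers summed to 21730 in inhibitor-treated replicate 3 against 27.0 to 118 in the other 8 libraries. Of these, 3 libraries were set aside in a further fit, namely injured replicate 2, sham replicate 3 and inhibitor-treated replicate 3. Inhibitor-treated replicate 2 was not among them, although it is the highest of its group in skeletal muscle markers. Injured replicates 1 and 3 were kept too, although their sums of 55060 and 28430 exceeded the 26790 of sham replicate 3. That fit therefore does not even out skeletal muscle markers between injured and sham libraries. Counts are also given without the 3 libraries set aside, which leaves 2 in each group.

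The first comparison, injured against sham, asks what injury did to the interferon-stimulated genes at day 14. Of the 37, 35 were higher in injured arteries and 0 were lower, beside 20.6% of all 16278 genes tested that were called higher, 16.8% called lower and 37.3% called in either direction. Their median log2 fold change was 1.79, against -0.003 over all genes tested. In 34 of the 37 every injured library lay above every sham library, as did 26% of all genes. Only Ifi35 and Igtp did not pass. Without the 3 libraries set aside, 29 of the 37 were higher, beside 15.6% of all genes in that fit. By role, the median log2 fold change was 3.87 in the OAS family, 2.64 in the ISG15 pair, 2.46 in the sensors, 2.42 in the mixed group of other effectors and 1.69 in the IFIT family. It was 1.27 in the GTPases, 1.24 in the transcription factors and 1.07 in the PARP group.

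**Figure D1:**
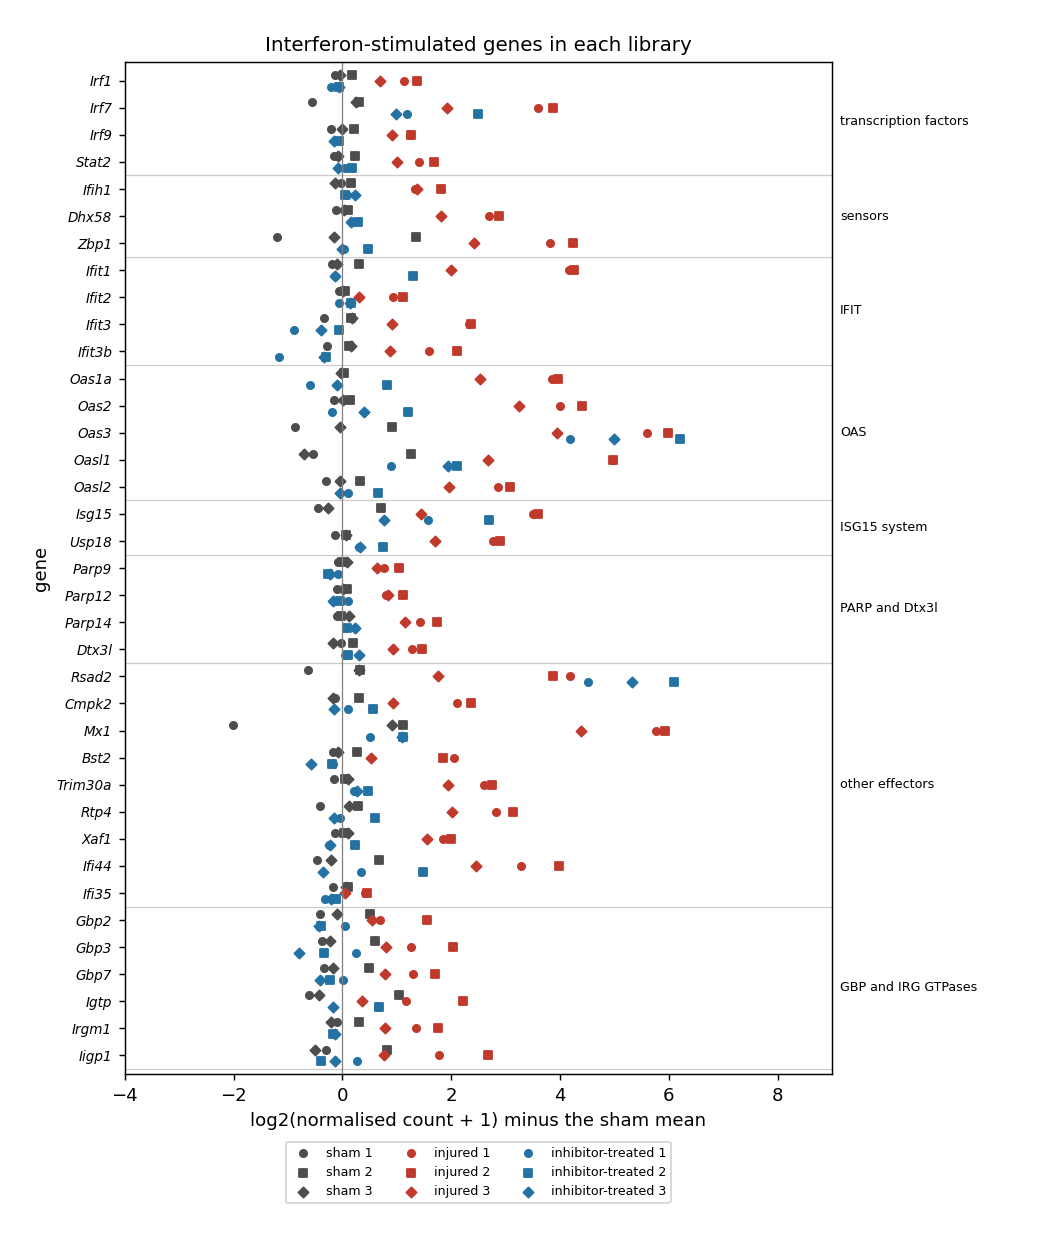
Levels of the 37 genes in each library as log2(normalised count + 1) minus the sham mean, on the horizontal axis, with genes grouped by role on the vertical axis, colour for the group and circle, square and diamond for replicates 1, 2 and 3. Injured libraries lie to the right for most genes, with replicate 3 the lowest of them in 35 of 37, and the inhibitor-treated libraries lie near 0 except for a few genes such as Rsad2 and Oas3.

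All 4 transcription factors rose. Irf7, the factor that amplifies type I interferon production (chromosome 7 from 141262706 to 141266481 in GRCm38), was at 92.1, 169 and 163 in sham and at 1654, 2012 and 519 in injured libraries. The groups did not overlap, although injured replicate 3 lay far below the other 2. Its log2 fold change was 3.12 ± 0.48 (adjusted p = 0.00127, limma). Irf1, a factor induced by interferon gamma, had the smallest change of the 4. It was at 642, 805 and 688 in sham and at 1562, 1846 and 1141 in injured libraries, all above sham, with a log2 fold change of 1.06 ± 0.18 (adjusted p = 0.00233). Stat2 and Irf9, partners in the complex that binds the ISRE, lay close to Irf1, at 1.36 ± 0.19 and 1.13 ± 0.15.

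The 3 nucleic acid sensors rose. Zbp1, a sensor of Z-form nucleic acid that can trigger cell death, was at 20.03, 122 and 42.5 in sham and at 678, 905 and 259 in injured libraries, a log2 fold change of 3.48 ± 0.65 (adjusted p = 0.00352). Dhx58, which encodes LGP2, a regulator of RNA sensing, changed by 2.46 ± 0.28. Ifih1, which encodes the double-stranded RNA sensor MDA5, was at 214, 243 and 197 in sham and at 552, 762 and 566 in injured libraries. In none of the 3 did the groups overlap. In Ifih1 the injured libraries were closer together than in Zbp1, and its log2 fold change of 1.502 ± 0.17 had an adjusted p of 0.000234.

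All 4 IFIT genes, which encode proteins that bind foreign RNA and lie side by side on chromosome 19, rose. Ifit1 (34640871 to 34650009) was at 136, 192 and 146 in sham and at 2838, 3025 and 630 in injured libraries, a log2 fold change of 3.47 ± 0.53 (adjusted p = 0.00128). Ifit2 changed least, from 474, 508 and 498 to 943, 1061 and 606, a log2 fold change of 0.77 ± 0.20 (adjusted p = 0.0162). The groups overlapped in neither. The Ifit2 call was lost when sham replicate 1 (adjusted p = 0.0638), sham replicate 2 (0.0524) or injured replicate 2 (0.0509) was left out. Ifit3 and Ifit3b changed by 1.86 ± 0.36 and 1.52 ± 0.30. They are near copies: of the stretches of 50 bases in their annotated transcripts, 51.2% of those of Ifit3 and 44.5% of those of Ifit3b occur in the other, so reads may be split between them and their separate values are uncertain.

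The OAS genes encode enzymes and relatives that sense double-stranded RNA and, in the active members, make the messenger that turns on RNase L. All 5 rose. Oas3 (chromosome 5 from 120753098 to 120777661) had hardly any reads in sham, with 14 over the 3 libraries. Its normalised counts were 2.00, 9.38 and 4.36 in sham and 267, 347 and 84.2 in injured libraries, and the log2 fold change was 5.16 ± 0.62 (adjusted p = 0.000355). Oas2 had a tighter spread, at 38.1, 46.9 and 42.5 against 691, 911 and 409, and a log2 fold change of 3.87 ± 0.28 (adjusted p = 3.69e-05). Oasl1, a brake on Irf7 translation, changed by 4.19 ± 0.73 from 5.01, 19.9 and 4.36 to 274, 274 and 55.0. Oas1a changed by 3.44 ± 0.36, but 57.6% of its 50-base stretches also occur in Oas1g, so its value is uncertain. Oasl2 had the smallest change of the family, 2.63 ± 0.29, from 190, 294 and 228 to 1710, 1977 and 910. The groups overlapped in none of the 5.

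Isg15, a ubiquitin-like protein that is attached to other proteins and also secreted, and Usp18, the protease that removes it and restrains the type I receptor, both rose. Isg15 (chromosome 4 from 156199424 to 156200818) was at 64.1, 143 and 73.0 in sham and at 1001, 1067 and 241 in injured libraries, with a log2 fold change of 2.84 ± 0.56 (adjusted p = 0.00444). Usp18 changed by 2.45 ± 0.30 with sham at 62.1, 71.5 and 70.8 and injured at 469, 511 and 224. Neither gene's groups overlapped, and in both injured replicate 3 was the lowest of its group. Parp9, Parp12, Parp14 and Dtx3l, of which the PARP genes encode ADP-ribosyltransferase family members and Dtx3l a ubiquitin ligase that pairs with PARP9, all rose. Parp14 led with 1.43 ± 0.16, from 526, 553 and 611 to 1519, 1881 and 1243. Parp9 was the smallest of them at 0.81 ± 0.13 (adjusted p = 0.00189), from 540, 564 and 600 to 968, 1169 and 877. Parp9 and Dtx3l overlap head to head by 458 exonic bases on opposite strands, and whether the counting used strand is not given in the sources used here.

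Of the 9 other effectors 8 rose. Mx1, whose intact form encodes a GTPase that traps viral nucleocapsids (chromosome 16 from 97447035 to 97462907), was at 1.00, 16.4 and 14.2 in sham and at 438, 489 and 168 in injured libraries. Whether this strain makes a functional protein from Mx1 was not measured. All injured libraries lay above all sham libraries, where 28 reads in all fell on the gene. Its log2 fold change of 5.34 ± 0.80 (adjusted p = 0.00113) was the highest of the 37. Rsad2, which encodes viperin, an enzyme that makes a chain-terminating nucleotide (chromosome 12 from 26442746 to 26456452), was at 56.1, 109 and 108 in sham and at 1600, 1281 and 297 in injured libraries. The log2 fold change was 3.26 ± 0.58 (adjusted p = 0.00279). Ifi35, an interferon-induced leucine zipper protein, was the exception, at 588, 711 and 697 in sham and at 888, 909 and 685 in injured libraries. There the groups overlapped through injured replicate 3, and the log2 difference of 0.30 ± 0.15 did not pass (adjusted p = 0.144). It passed without injured replicate 3 (adjusted p = 0.0219). Of its exonic bases 16.8% lie under a gene model on the opposite strand. The other 6 called members of the group changed by 1.47 (Bst2, which tethers budding virions) to 3.23 (Ifi44), and the Bst2 call was lost without sham replicate 1 (adjusted p = 0.056).

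Of the 6 interferon-inducible GTPases 5 rose. These guanylate-binding proteins (Gbp2, Gbp3 and Gbp7 on chromosome 3) and immunity-related GTPases (Igtp and Irgm1 on chromosome 11, Iigp1 on chromosome 18) are known mainly as targets of interferon gamma. Iigp1 had the largest difference, at 525, 1145 and 458 in sham and at 2218, 4147 and 1108 in injured libraries, a log2 fold change of 1.73 ± 0.49 (adjusted p = 0.023). Its groups overlapped, since injured replicate 3 lay below sham replicate 2. Gbp2 was at 729, 1372 and 898 in sham and at 1553, 2848 and 1409 in injured libraries, just without overlap, with a log2 fold change of 0.92 ± 0.30 (adjusted p = 0.0423). Igtp was at 260, 818 and 293 against 897, 1841 and 507, with overlap, and its log2 difference of 1.24 ± 0.53 did not pass (adjusted p = 0.101). Without injured replicate 3 it passed (adjusted p = 0.0271), as it did without sham replicate 2 (0.0339). The Gbp2 call was lost without injured replicate 2 (adjusted p = 0.101), sham replicate 1 (0.156) or sham replicate 3 (0.11). The Iigp1 call was lost without injured replicate 1 (0.0524), injured replicate 2 (0.0526), sham replicate 1 (0.0906) or sham replicate 3 (0.078), and that of Gbp3 without sham replicate 1 (0.0624). Of the stretches of 50 bases in Igtp, 11.8% also occur in its neighbour Irgm2, and of those in Gbp7 12.7% occur in other genes.

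Within the injured and the sham group, most members shared their highest and their lowest library. Among injured libraries, replicate 2 was the highest in 34 of the 37 genes and replicate 3 the lowest in 35 of the 37. The median deviation from the group mean on the log2 scale was 0.12 in injured replicate 1, 0.48 in replicate 2 and -0.64 in replicate 3. Among sham libraries, replicate 2 was the highest in 31 and replicate 1 the lowest in 30. The inhibitor-treated libraries were less alike in order, with replicate 2 the highest in 25 and replicates 1 and 3 the lowest in 16 each. These counts were not made over all genes. Of the marker lists, the 18 macrophage and monocyte markers summed to 55130, 62800 and 41000 in injured replicates 1, 2 and 3, and the T and natural killer cell markers to 490, 766 and 356, the same order as most members. The B and plasma cell markers, at 6141, 9090 and 3905, and the skeletal muscle markers had that order too. Endothelial markers, at 27130, 37820 and 41650, were highest in replicate 3, and fibroblast markers, at 116300, 83260 and 102200, in replicate 1. The neutrophil markers, at 1264, 5347 and 1336, were highest in replicate 2 but lowest in replicate 1, and the dendritic cell markers, at 1098, 1045 and 919, were highest in replicate 1. The macrophage and monocyte list was called higher in 17 of 18 genes and lower in 1 in injured arteries, with sums of 7570 to 8734 in sham. Its defining markers were at 771 to 1043 (Cd68) and 1106 to 1559 (Adgre1) in injured libraries and were at 0 in no library. The 7 neutrophil markers tested and the 8 T and natural killer cell markers tested all rose, and summed to 1264 to 5347 and 356 to 766 in injured libraries against 94.1 to 112 and 19.0 to 52.8 in sham. Of the 5 B and plasma cell markers tested 4 rose and 1 did not pass. Of the 8 endothelial markers 5 rose and 3 did not pass, with sums of 27130 to 41650 in injured and 21060 to 32510 in sham libraries. Of the 6 fibroblast markers 4 rose, 1 fell and 1 did not pass, with sums of 83260 to 116300 against 46740 to 55430. The 8 smooth muscle markers moved the other way, 7 of them lower, with sums of 148400 to 173500 in injured and 494800 to 664200 in sham libraries. The part of these cell types, and of the skeletal muscle, in the rise of the interferon-stimulated genes was not tested.

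The second comparison, inhibitor-treated against injured, asks how the same genes stood when the injury was followed by FAK inhibition. It shares the injured libraries with the first comparison, so values from both are given side by side and not correlated. Of the 37 genes, 33 were called, 32 of them lower and 1 higher in inhibitor-treated arteries, and 4 did not pass. Over all 16901 genes tested, 18.5% were called lower and 17.6% higher, 36.1% in all. The median log2 fold change of the members was -1.63, against 0.006 over all genes tested. The groups did not overlap, with the inhibitor-treated libraries lower, in 32 members (25.5% of all genes) and, with them higher, in 1 (26.1% of all genes). Without the 3 libraries set aside, 25 of the 37 were lower and 0 were higher, beside 10.4% and 9.43% of all genes in that fit. The gene that was called higher was Rsad2, and those that did not pass were Irf7, Isg15, Oas3 and Igtp.

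**Figure D2:**
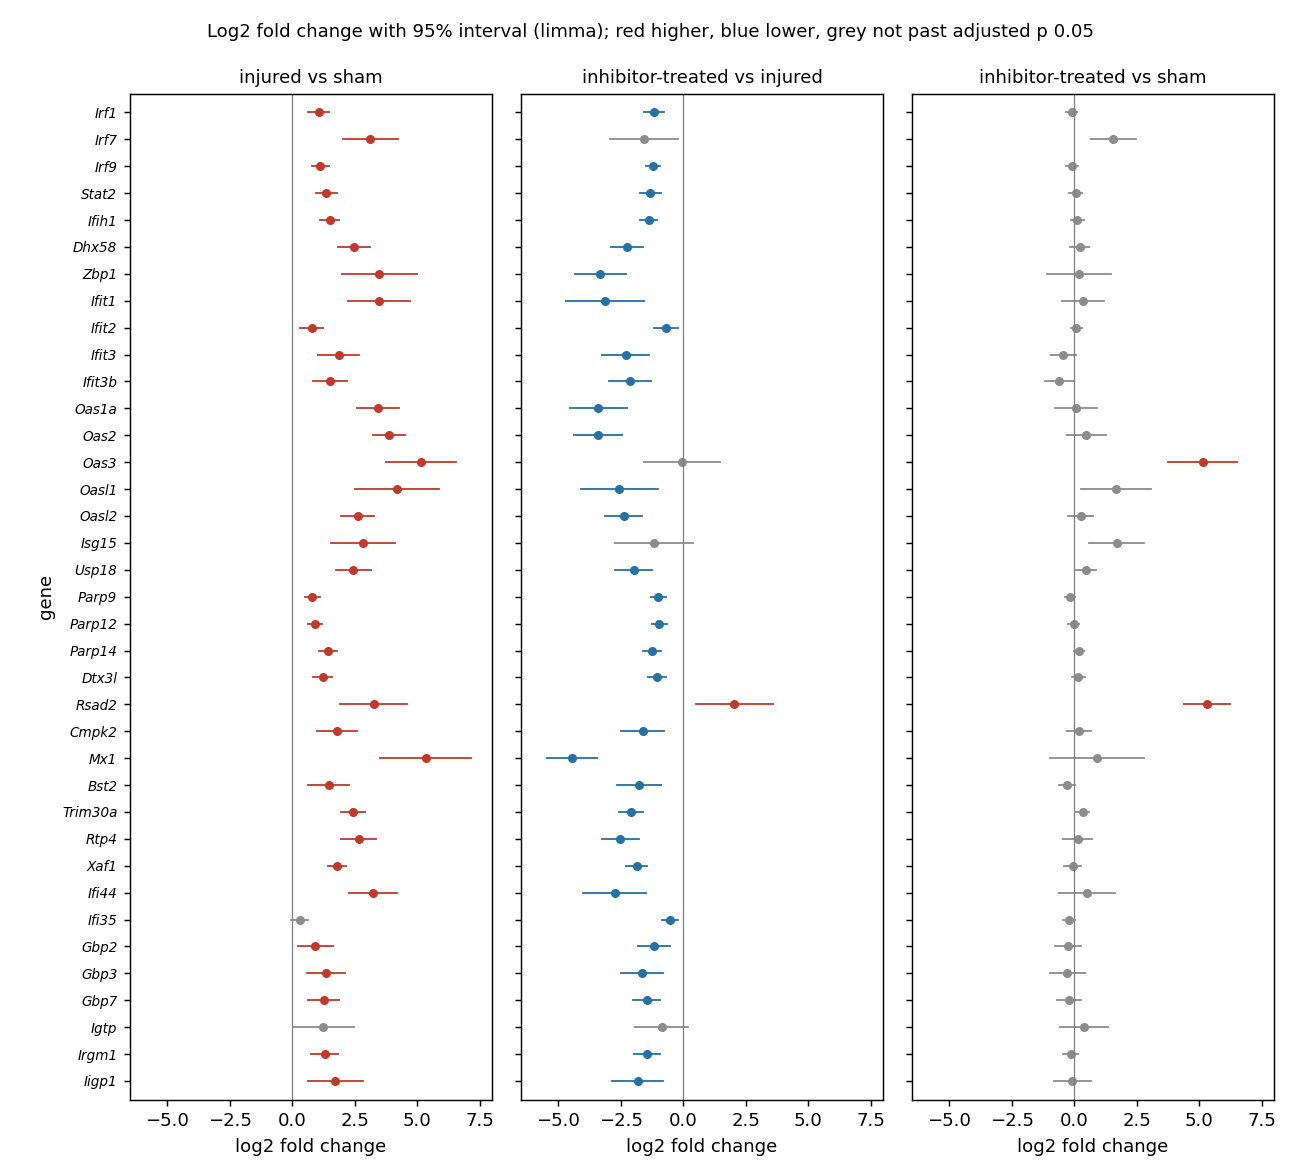
Log2 fold change with its 95% interval for each of the 37 genes in 3 panels, injured over sham, inhibitor-treated over injured and inhibitor-treated over sham, with red for called higher, blue for called lower and grey for not called. The first panel holds 35 red genes, the second 32 blue and 1 red, and the third 2 red genes, Rsad2 and Oas3.

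Among the transcription factors, Irf1, Irf9 and Stat2 fell. Irf1 was at 615, 676 and 676 in inhibitor-treated libraries, below all injured libraries, with a log2 fold change of -1.18 ± 0.17 (adjusted p = 0.00189, limma). Irf7 was at 312, 769 and 272, and inhibitor-treated replicate 2 lay above injured replicate 3. Its log2 difference of -1.57 ± 0.58 was the largest of the 4 in size but did not pass (adjusted p = 0.0698). It passed without inhibitor-treated replicate 2 (adjusted p = 0.0406), without injured replicate 3 (0.00963) and in the authors' deposited table (0.0464). All 3 sensors fell. Zbp1 was at 48.4, 66.1 and 47.3 in inhibitor-treated libraries, a log2 fold change of -3.32 ± 0.44 (adjusted p = 0.00119). Ifih1 was at 230, 224 and 255, a log2 fold change of -1.39 ± 0.15 (adjusted p = 0.000548). Every inhibitor-treated library lay below every injured library in both.

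All 4 IFIT genes fell. Ifit1 was at 141, 387 and 143 in inhibitor-treated libraries, with replicate 2 the highest and still below injured replicate 3 at 630. Its log2 fold change was -3.14 ± 0.66 (adjusted p = 0.00916), and -2.51 without the 3 libraries set aside, where it did not pass (adjusted p = 0.0911). Ifit2, at 472, 551 and 541, had the smallest change at -0.70 ± 0.21 (adjusted p = 0.0343). That call was lost whenever any library was left out except injured replicate 3, with adjusted p of 0.0754 to 0.116. Of the OAS genes 4 of 5 fell, Oas1a and Oas2 by the same log2 fold change of -3.40 (standard errors 0.48 and 0.41). Oas2 was at 37.02, 99.1 and 56.3, all below the injured libraries. Oasl1, at 15.2, 36.7 and 32.7, changed by -2.56 ± 0.66 (adjusted p = 0.0207), a call lost without inhibitor-treated replicate 1 (0.074), injured replicate 1 (0.068) or injured replicate 2 (0.0701).

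Oas3 stood apart from its family. Its inhibitor-treated libraries were at 98.7, 407 and 175 and its injured libraries at 267, 347 and 84.2, so that the groups overlapped. The log2 difference was -0.05 ± 0.65 with a 95% interval of -1.57 to 1.47 (adjusted p = 0.959). The interval spans differences in either direction of over 1 on the log2 scale, so the data do not show that Oas3 was equal in the groups. Across the alternatives tried, its difference ran from -0.68 to 0.43 and never passed. Oas3 shares 0.3% of its 50-base stretches with other genes, and its exons overlap no other annotated gene.

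Usp18 fell, at 84.5, 115 and 85.4 in inhibitor-treated libraries, by -1.99 ± 0.32 on the log2 scale (adjusted p = 0.00287). Isg15 was at 264, 570 and 150, and its groups overlapped because injured replicate 3, at 241, lay below 2 inhibitor-treated libraries. Its log2 difference of -1.17 ± 0.67 did not pass (adjusted p = 0.209) but passed without injured replicate 3 (0.0274). All 4 genes of the PARP group fell within a narrow range, from -0.96 ± 0.13 for Parp12 to -1.25 ± 0.15 for Parp14. Parp14 was at 663, 594 and 664 in inhibitor-treated libraries, close together and below all injured libraries. Of the 6 GTPases 5 fell, led by Iigp1 at -1.83 ± 0.44 (adjusted p = 0.0156), with 779, 494 and 590 in inhibitor-treated libraries. That call was lost without inhibitor-treated replicate 2 (adjusted p = 0.0567). Gbp2, at 999.5, 738 and 718, changed by -1.18 ± 0.27 (adjusted p = 0.0131), without overlap. Igtp, at 627, 631 and 354, overlapped the injured libraries, and its log2 difference of -0.86 ± 0.45 did not pass (adjusted p = 0.18). It passed without injured replicate 3 (adjusted p = 0.0321) and in the authors' deposited table (0.0456).

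Of the 9 other effectors 8 fell and Rsad2 rose. Mx1 was at 10.4, 16.5 and 16.4 in inhibitor-treated libraries, all far below injured, and its log2 fold change of -4.45 ± 0.43 (adjusted p = 0.00033) was the lowest of the 37. Ifi35, which had not passed for injury, fell by 0.53 on the log2 scale (standard error 0.13, adjusted p = 0.0202), at 528, 607 and 573. That call was lost without injured replicate 1 (adjusted p = 0.0555), injured replicate 2 (0.0683), inhibitor-treated replicate 1 (0.0811) or inhibitor-treated replicate 3 (0.0577). Bst2 and Cmpk2, the latter a mitochondrial nucleotide kinase, fell by 1.78 and 1.63 on the log2 scale, and neither passed without the 3 libraries set aside (adjusted p = 0.0962 and 0.113). Cmpk2 lies next to Rsad2 on chromosome 12 (26469204 to 26479837) on the other strand.

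Rsad2 was at 1600, 1281 and 297 in injured libraries and at 2014, 5999 and 3508 in inhibitor-treated libraries. Every inhibitor-treated library lay above every injured library, and replicate 2 was the highest. The mean normalised count of the comparison's own table went from 1101 ± 706 (SD, n = 3) to 4006 ± 2104 (SD, n = 3), which is 3.64 times as high. The log2 fold change was 2.04 ± 0.66 with a 95% interval of 0.49 to 3.59, and it passed narrowly (adjusted p = 0.047, limma). The call was lost in 7 of the 19 alternatives, and over all 19 the log2 fold change ran from 1.29 to 2.50. These were edgeR on the recovered reads (adjusted p = 0.0587), quantile normalisation (0.0538), the sets without injured replicate 2 (0.0636) or without inhibitor-treated replicate 1 (0.054), 2 (0.141) or 3 (0.104), and the set without the 3 libraries set aside (0.135). In the 37 genes ordered by mean normalised count per kilobase of annotated exon, Rsad2 stood at place 29 in sham and at the first place in inhibitor-treated arteries, at 886. Bst2 led in sham and injured arteries, at 926 and 2810, and had 745 in inhibitor-treated arteries. These places are of group means. Rsad2 ran from 2014 to 5999 in inhibitor-treated libraries, and its first place did not hold in each of them. In inhibitor-treated replicate 1 it was at 2014 over 4335 exonic bases and Bst2 at 738.5 over 903. Bst2 therefore stood above Rsad2 per kilobase in that library.

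**Figure D3:**
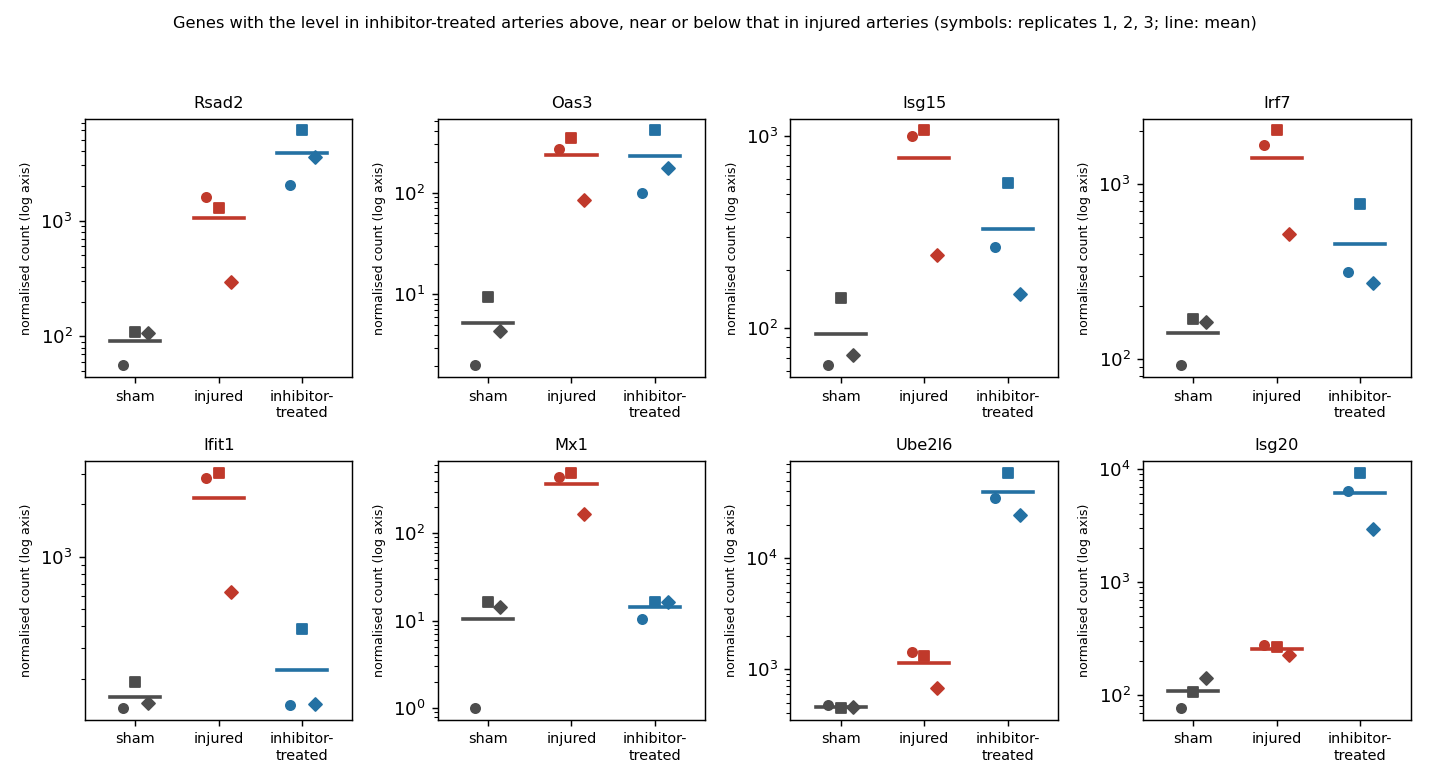
Normalised counts in each library on a log axis for Rsad2, Oas3, Isg15, Irf7, Ifit1 and Mx1 of the list and for Ube2l6 and Isg20 of the wider pathway, with sham, injured and inhibitor-treated libraries side by side, symbols for replicates 1, 2 and 3 and a line at the mean. Rsad2 lies higher in inhibitor-treated (2014 to 5999) than in injured libraries (297 to 1600), Oas3 overlaps between them (98.7 to 407 and 84.2 to 347), and Ifit1 and Mx1 lie near the sham range.

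The third comparison, inhibitor-treated against sham, asks what remained of the injury response under the inhibitor. Of the 37 genes, 2 were higher than in sham, 0 were lower and 35 did not pass. Over all 16166 genes tested, 5.15% were called higher, 0.934% lower and 6.08% in either direction, so 2 of 37 members is close to the background. The members' median log2 fold change was 0.14, against -0.007 over all genes tested. The groups did not overlap in 7 members with the inhibitor-treated libraries higher (14.7% of all genes) and in 2 with them lower (13.1% of all genes). The 35 that did not pass had log2 differences between -0.60 (Ifit3b) and 1.69 (Isg15). For 25 of the 37 the 95% interval lay within 1 of 0 on the log2 scale, and the estimate lay within 0.5 of 0 for 29. The inhibitor-treated mean exceeded the sham mean by 10% or less of the difference between injured and sham in 32 genes, of which 15 lay below the sham mean. The 5 others were Igtp (12.8%), Irf7 (24.7%), Isg15 (34.7%), Oas3 (97.4%) and Rsad2 (387%). Among the 32 was Ifi35, whose rise with injury was not called. The counts of 25, 29 and 32 were not made over all genes, of which 6.08% differed from sham by the test. Whether levels near sham were particular to the members is therefore not shown. Without the 3 libraries set aside, 4 members were higher than in sham, beside 5.46% of all genes in that fit.

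The 2 genes that rose over sham were Rsad2 and Oas3. Rsad2 had a log2 fold change of 5.32 ± 0.40 (adjusted p = 0.000243), from a mean of 90.6 ± 30.1 (SD, n = 3) in sham to 3855 ± 2016 (SD, n = 3) in inhibitor-treated arteries. Oas3 had a log2 fold change of 5.14 ± 0.59 (adjusted p = 0.002), from 5.21 ± 3.71 to 228 ± 161 (SD, n = 3 each). Neither overlapped, neither lost its call in any of the alternatives tried, and for Oas3 the sham side rests on 14 reads against 740 in inhibitor-treated libraries. Irf7, at 312, 769 and 272 against 92.1, 169 and 163 in sham, lay above sham in every library. Its log2 difference of 1.57 ± 0.40 had an adjusted p of 0.0597, which was 0.0434 without inhibitor-treated replicate 3 and 0.0264 in the authors' deposited table. Isg15, at 264, 570 and 150 against 64.1, 143 and 73.0, also lay above sham in every library. Its log2 difference of 1.69 ± 0.47 had an adjusted p of 0.0834, which was 0.0265 without inhibitor-treated replicate 3. In Usp18, Trim30a and Dhx58 every inhibitor-treated library also lay above sham, but the log2 differences of 0.47 ± 0.18, 0.33 ± 0.12 and 0.22 ± 0.17 did not pass (adjusted p = 0.18, 0.154 and 0.492). Oasl1 overlapped sham and did not pass, at 1.66 ± 0.61 (adjusted p = 0.17).

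None of the other members passed. Ifit1, which had risen by 3.47 on the log2 scale with injury, differed from sham by 0.35 ± 0.37 (95% interval -0.49 to 1.201, adjusted p = 0.629). Mx1 differed by 0.92 ± 0.82, and the 95% interval of -0.97 to 2.81 is wide, with 1 read in sham replicate 1 and 14 and 13 in replicates 2 and 3. Ifih1, Stat2 and Parp12 had tight intervals, of -0.14 to 0.39, -0.21 to 0.33 and -0.25 to 0.20. Ifit3b and Parp9 were the members whose inhibitor-treated libraries all lay below sham. Ifit3b was at 72.1, 132 and 129 against 134, 178 and 184, a log2 difference of -0.60 ± 0.25 (adjusted p = 0.224), and Parp9 at 534, 474 and 487 against 540, 564 and 600, a difference of -0.18 ± 0.09 (adjusted p = 0.287). Of the GTPases, Igtp differed by 0.40 ± 0.42 and Gbp3 by -0.28 ± 0.31, and no GTPase was without overlap.

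Erythroid markers were higher in inhibitor-treated arteries than in both other groups. The 4 erythroid markers in the tables (among them Alas2, the first enzyme of erythroid heme synthesis, and Slc4a1, the band 3 anion exchanger) were called higher in 4 of 4 against injured and against sham. Their sums were 37100, 87880 and 48990 in inhibitor-treated replicates 1, 2 and 3, against 164 to 349 in sham and 70.2 to 178 in injured libraries. Rsad2, at 2014, 5999 and 3508, and Oas3, at 98.7, 407 and 175, had the same order of the 3 libraries. Isg15 and Irf7 were also highest in replicate 2 but lowest in replicate 3. Among the 37 genes, inhibitor-treated replicate 2 was the highest of its group in 25. Of the 7 neutrophil markers 6 were higher than in sham, with sums of 2458 to 2778, and S100a8 and S100a9, the defining ones, were at 669 to 1157 and 401 to 732. Against injured arteries 2 of the 7 were higher and 5 did not pass. Of the 7 T and natural killer cell markers tested 6 were higher than in sham, with sums of 253 to 293. Against injured arteries 3 of 8 were lower and 5 did not pass. Of the 18 macrophage and monocyte markers 16 were lower and 1 was higher than in injured arteries, and 5 were higher than in sham, with sums of 9257 to 14220. Of the 8 endothelial markers 5 were lower than in injured arteries and 0 differed from sham, with sums of 25950 to 27540. Of the 6 fibroblast markers 4 were lower and 1 was higher than in injured arteries. Against sham 1 of the 6 was lower, with sums of 39490 to 40550. Of the 7 B and plasma cell markers 2 were higher and 2 lower than in injured arteries, and 3 were higher than in sham. The 8 smooth muscle markers summed to 581100 to 590700, and 0 of 8 differed from sham by the test. The part of these cells in the levels of Rsad2, Oas3, Isg15 and Irf7 was not tested.

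**Figure D4:**
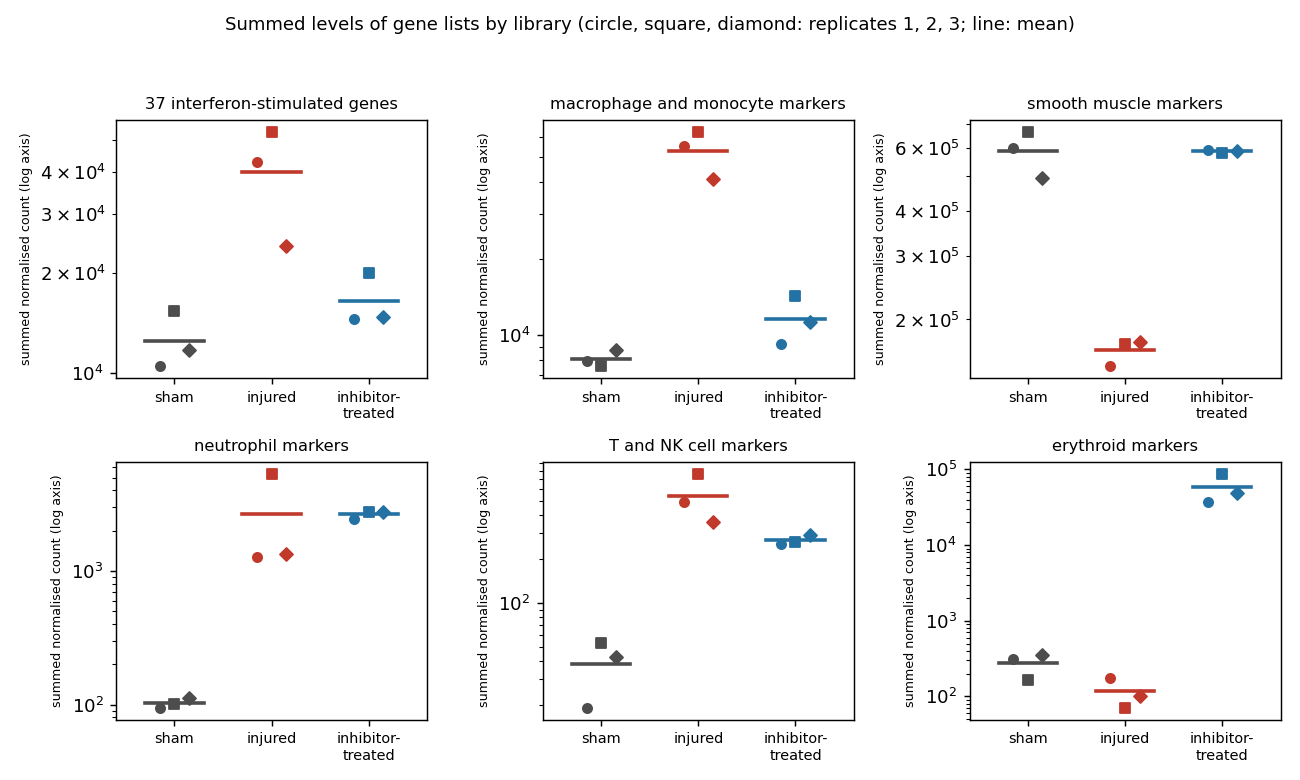
Summed normalised counts in each library on a log axis, in 6 panels of gene lists, with sham, injured and inhibitor-treated libraries side by side. Macrophage and monocyte markers are highest in injured libraries (41000 to 62800), and erythroid markers are highest in inhibitor-treated libraries (37100 to 87880).

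The wider interferon pathway was described with a list of 62 further genes. None of the 11 interferon genes searched, among them Ifnb1 and Ifng, was listed in any of the 3 tables, from which genes of low mean were left out. Of the 6 receptor genes, Ifnar1, Ifnar2, Ifngr1 and Il10rb rose with injury, by 0.55 to 0.95 on the log2 scale, and fell in inhibitor-treated against injured arteries, by 0.50 to 1.01 on that scale. Ifnar2, the signalling chain of the type I receptor, was at 730, 585 and 684 in sham, 1244, 1179 and 1096 in injured and 587, 682 and 624 in inhibitor-treated libraries. Injured libraries lay above both other groups, and the log2 fold changes were 0.81 ± 0.12 (adjusted p = 0.00115) and -0.89 ± 0.10 (adjusted p = 0.000664). Ifngr2 and the interferon lambda receptor Ifnlr1 did not pass in any comparison. Of the 3 kinases, Jak1 passed in both and Jak2 and Tyk2 in neither. Jak1 was at 2251, 2002 and 2055 in sham, 2754, 3227 and 3604 in injured and 2283, 2252 and 2519 in inhibitor-treated libraries. Injured libraries again lay above both other groups, and the log2 fold changes were 0.59 ± 0.13 (adjusted p = 0.00675) and -0.43 ± 0.12 (adjusted p = 0.0269). No receptor or kinase passed against sham.

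Over the whole wider list, 34 of the 50 genes tested rose and 2 fell with injury (median log2 fold change 1.25), beside 20.6% and 16.8% of all genes, and 32 of 50 fell and 4 rose in inhibitor-treated against injured arteries (median -1.10), beside 18.5% and 17.6%. Against sham 6 of 49 were higher and 0 lower (median 0.13), beside 5.15% and 0.934%. Of the sensing genes, Aim2, a sensor of cytosolic DNA, had the largest rise with injury, from 17.0, 17.6 and 21.8 to 186, 249 and 151, a log2 fold change of 3.28 ± 0.26. In inhibitor-treated libraries it was at 76.9, 92.7 and 85.4, between the groups and above sham (2.13 ± 0.22, adjusted p = 0.00106). Mavs, the adaptor of RNA sensing, and Pias1, a SUMO ligase, had the opposite signs. Both fell with injury, by 0.51 and 0.53 on the log2 scale, and rose with the inhibitor, by 0.52 and 0.73. Socs1, a brake on JAK kinases, rose by 1.64 ± 0.34 and fell by 1.47 on the log2 scale (standard error 0.37).

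In the wider list 2 genes had the pattern of Rsad2, with a further rise under the inhibitor. Ube2l6, the enzyme that passes ISG15 to its ligase, was at 479, 448 and 458 in sham, 1431, 1330 and 681 in injured and 35220, 58520 and 24700 in inhibitor-treated libraries. The 3 groups did not overlap, and the log2 fold change was 5.09 ± 0.38 (adjusted p = 0.000128) against injured and 6.34 ± 0.26 (adjusted p = 4.48e-05) against sham. Isg20, an RNA exonuclease, was at 77.1, 107 and 143 in sham, 279, 266 and 228 in injured and 6442, 9233 and 2958 in inhibitor-treated libraries. Its log2 fold changes were 4.45 ± 0.37 (adjusted p = 0.000199) against injured and 5.73 ± 0.39 (adjusted p = 0.000168) against sham. In both, as in the erythroid markers, inhibitor-treated replicate 2 was the highest, and the part of those cells was not tested. Uba7 and Herc6, which act before and after Ube2l6 in joining ISG15 to proteins, did not follow it: both rose with injury (1.28 and 1.11 on the log2 scale) and fell with the inhibitor (-1.01 and -0.68 on the log2 scale). The other genes above sham were Ifitm1 (1.72 ± 0.31), Irf8 (1.05 ± 0.23) and Ifi203 (0.79 ± 0.17), besides Aim2.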

How the data were processed

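Total RNA was sequenced from 9 libraries, 3 in each of 3 groups, and the values came in 3 tables, 1 for each pair of groups. The authors' deposited values are a signal of reads per gene divided by 1 factor for each library. The same tables hold the authors' log2 fold change and their p-value and adjusted p, per the file headers. The build was mm10 (GRCm38), per the submitters' processing notes. Which aligner, counter and test the authors ran, and whether strand was used, is not given in the sources used here. All values were whole multiples of what 1 read was worth (100% within 0.01 of a read), which gave back the reads, and none of 143802 values that occur in 2 tables differed. In 1 column of each of 2 tables a read was worth nearly 1, so the reads of those libraries rest on the other table that holds them. Levels across the 3 groups were rescaled by median of ratios over 16750 genes found in at least 2 tables.

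Since the values were normalised, comparisons used limma 3.58.1 in R 4.3.3 with a trended variance, on log2(normalised count + 1) of genes with a mean of at least 10 over the 6 libraries, with group as the only term, two-sided. The test was checked on simulated data in which all genes and libraries had the same set spread. That check does not show how the test behaves with the unequal spread of these libraries. The edgeR 4.0.16 quasi-likelihood test on the recovered reads called 6055, 5962 and 899 genes in the 3 comparisons, against 6076, 6099 and 983 by limma. DESeq2 1.42.0, other pseudocounts (5 and 0.1), filters and scalings, sample weights, a replicate block and leaving out libraries were further alternatives. No 2 libraries were alike within counting noise. Same-numbered libraries did not deviate together in all pairs, so the numbers were not treated as a pairing. Reads shared between near copies were described by the share of 50-base stretches of GENCODE M21 transcripts that occur in another gene. The members and lists were chosen with earlier results of these data known. The text names, in each comparison, the highest and lowest member of each role group, those whose call differs from most of their group and those whose groups overlap. For the wider pathway it names receptors and kinases, and the extremes of the other lists.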

Additional observations from a re-analysis of the deposited data

How the results depend on the processing

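Each result was recomputed with 1 choice changed at a time, and leaving out the 3 libraries set aside was done at once. Of 703 values for members against sham after injury, 678 kept their side of the threshold, 19 lost and 6 gained a call. For inhibitor-treated against injured these were 658, 30 and 15 of 703, and against sham 688, 0 and 11 of 699. No called value changed sign, while 7 and 35 values without a call did in the last 2 comparisons. With sample weights 9621 genes were called for injury and 10651 for inhibitor-treated against injured. The latter was 3295 without the 3 libraries set aside. The member called higher there, Rsad2, was not called (0 members) with edgeR, with quantile normalisation or without those 3 libraries, and leaving out 1 library gave 0 to 1. Against sham, 1664 genes were called with scaling on ribosomal protein genes. Leaving out 1 library gave 518 (without sham replicate 1) to 854, with 533 without inhibitor-treated replicate 2, 596 without sham replicate 2 and 598 without inhibitor-treated replicate 1. Members called higher than sham numbered 5 with ribosomal scaling and 4 without the 3 libraries set aside, and 2 to 4 when 1 library was left out, with 4 without inhibitor-treated replicate 3. With the replicate block there were 4 members higher than sham, 36 higher after injury, and 35 lower and 1 higher in inhibitor-treated against injured arteries. Same-numbered libraries correlated in their deviations at -0.076 to 0.192, so a pairing is not shown. Ribosomal scaling moved the median of all genes to -0.19, 0.35 and 0.14 on the log2 scale in the 3 comparisons. Under it 34 members were higher after injury and 29 lower with the inhibitor. It also changed the genes called to 3696 higher and 1557 lower for inhibitor-treated against injured (2976 and 3123 as reported), and to 1630 and 34 against sham (832 and 151). Quantile normalisation gave 617 and 220 against sham. Oas3 and Mx1 in sham rest on 14 and 28 reads, which limits the precision of their fold changes.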
